A study of Mus musculus with 24 samples.

Results

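Inguinal mammary glands of C57 mice on lactation day 14 were compared with glands of C57 mice that were not lactating, 3 mice in each group, which is 6 of the 24 glands of the series. Both groups carry the label BL/6 C57, and the deposited table is named for the first pregnancy. The rest of the series consists of C57 glands on days 8 and 21 and of the same 4 stages in mice labelled BL/6 NZB. Glands were snap frozen and polyadenylated RNA of the whole tissue was sequenced, so each value is a sum over all cell types of the gland. In such samples, fewer cells of a type and less RNA per cell cannot be told apart. The labels give neither the age of the mice nor the time of day at collection.

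Lactation day 14 lies near the peak of milk output in the mouse. Prolactin, acting through its receptor and the transcription factors STAT5A and STAT5B, drives secretory epithelial cells to make caseins and whey proteins, to build milk fat from imported and newly made fatty acids, to make lactose in the Golgi, and to move calcium, phosphate and zinc into milk. Around the alveoli sit contractile myoepithelial cells, blood vessels, fibroblasts, IgA plasma cells and adipocytes, and the adipocytes dominate the gland when no milk is made.

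The 3 day 14 glands held 18542790, 21334935 and 20489678 counts and the 3 non-lactating glands 14553308, 7031812 and 15884404, as means of the 2 deposited columns of a mouse. Some glands stood apart or went against a label. Non-lactating mouse 3 is C57 by its title and NZB by its genotype field. In a chi-square comparison of counts it differed from C57 non-lactating mice 1 and 2 by 11 and 60.6 per gene. From NZB non-lactating mice 1, 2 and 3 it differed by 72.9, 48.6 and 221.7 per gene. The 2 ranges overlap, but its nearest gland was C57 mouse 1, at the lowest value of the 24 pairs within groups. Which of the 2 labels is right was not tested. The gland was kept as C57 by its title. Non-lactating mouse 2 had the lowest depth, with 2174916 and 11888708 counts in its 2 columns, and differed from mice 1 and 3 by 57.3 and 60.6 per gene. Day 14 mouse 1 differed from day 21 mouse 1 by 15.2 per gene and day 14 mouse 2 from day 21 mouse 2 by 5.2, while replicate mice within the 8 groups differed by 11 to 196.3. The corresponding value for the mice numbered 3 was 36.7. Their deviations from the group means correlated at 0.48, 0.41 and 0.05 across genes for mice 1, 2 and 3, where genes are not independent replicates. Whether these day 14 and day 21 libraries share an animal or RNA is not given in the labels and was not tested.

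Milk protein genes held most of the counts on day 14. The 19 genes of this class took 64.24%, 76.20% and 71.19% of all counts in the 3 day 14 glands (70.54% ± 6.01, SD, n = 3) and 0.45%, 0.43% and 0.47% in the non-lactating glands (0.45% ± 0.02, SD, n = 3). The groups were far apart, with a difference of 70.09 percentage points and an exact two-sided permutation p of 0.1, the smallest that 3 against 3 samples can give. The 5 casein genes alone held 58.3% ± 5.23 of counts on day 14 and 0.26% ± 0.02 without lactation. Csn2, which encodes beta-casein, held 28% of the counts on day 14, Csn1s1 (alpha-S1-casein) 16.2%, Csn1s2a 7.23%, the whey acidic protein gene Wap 7.01%, Csn3 (kappa-casein, which caps the casein micelle) 5.0% and Trf (transferrin) 4.08%. Between 3 and 4 genes made up 50% of the counts of a day 14 gland, against 479 to 902 genes in a non-lactating gland. The number of genes above 1 CPM (counts per 1000000) was 12905, 11294 and 12215 on day 14 and 15191, 15619 and 15113 without lactation.

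**Figure D1:**
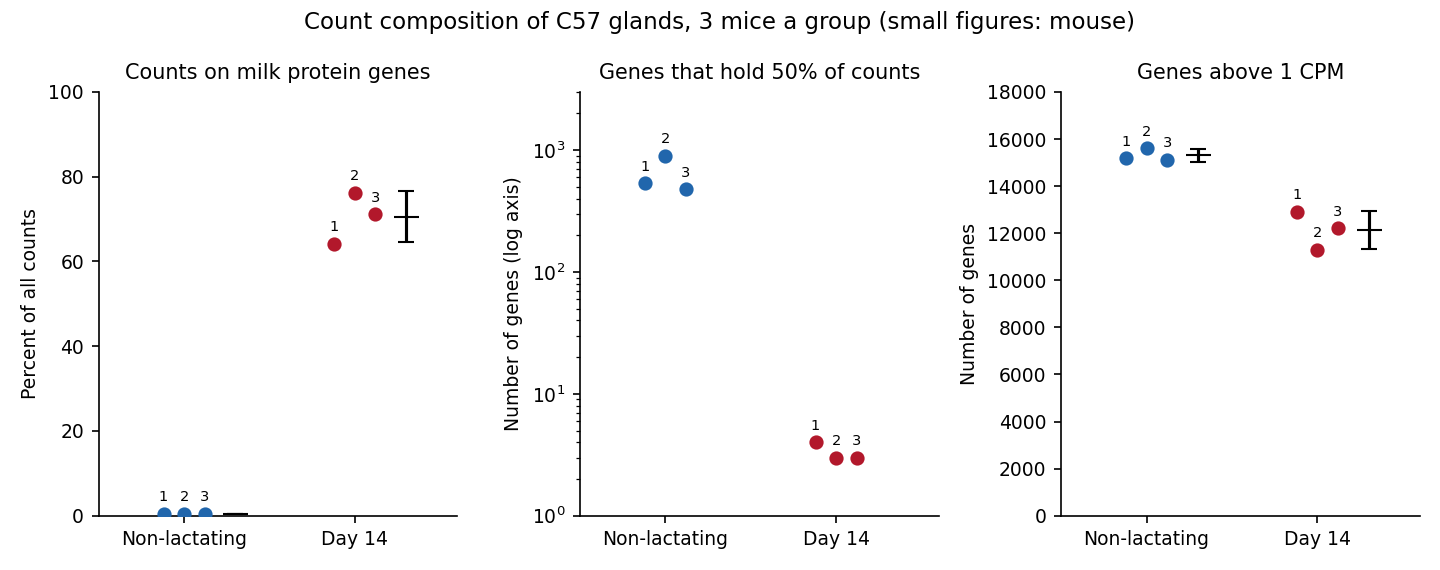
Share of counts on the 19 milk protein genes in percent, number of genes that together hold 50% of counts (log axis), and number of genes above 1 CPM, for each of 3 non-lactating and 3 day 14 C57 glands. Points are mice, numbered as in the labels, and bars in the first and last panels give the mean and SD; milk protein genes held 64.24% to 76.20% of counts on day 14 and at most 0.47% without lactation.

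On the deposited scale, log2 of CPM + 1, 16 of the 19 milk protein genes rose, 1 fell and 2 did not pass an adjusted p of 0.05 in limma, with a median log2 change of 6.50 (all 19 were tested). Over all 16162 genes tested on that scale, 88.9% were called, 2.59% higher and 86.3% lower. Csn2 was at 247284, 279598 and 311907 CPM on day 14 and at 1001, 1013 and 1084 CPM without lactation, a log2 change of 8.07 (SE 0.38, adjusted p = 1.77e-13). Csn1s1 was at 154961, 171436 and 158761 CPM against 672, 721 and 702 CPM, a log2 change of 7.85 (SE 0.33, adjusted p = 3.49e-14). Wap was at 57824, 83025 and 69430 CPM against 365, 353 and 372 CPM, a log2 change of 7.57 (SE 0.37, adjusted p = 3.17e-13). Each of these genes was high in every day 14 gland, and no gland of one group overlapped with the other. Lalba, the cofactor of lactose synthase, stood at 1146, 1037 and 1032 CPM on day 14 and at 3.40, 7.36 and 3.93 CPM without lactation (log2 change 7.56, SE 0.26). The milk enzymes rose too, with Lao1, an L-amino acid oxidase, at a log2 change of 7.93, the bile salt-stimulated lipase gene Cel at 6.50 and lactoperoxidase, Lpo, at 6.19. Ltf, the iron-binding antibacterial protein lactoferrin, rose by less, from 199, 148 and 80.9 CPM to 1491, 620 and 477 CPM (log2 change 2.5, SE 0.58, adjusted p = 0.000383). The exceptions were Wfdc21, which fell from 8.14, 3.88 and 7.08 CPM to 0.05, 0 and 0 CPM (adjusted p = 1.01e-07), and Spp1 (osteopontin) and Slpi (a leukocyte protease inhibitor), which overlapped between the groups and were not called.

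The 5 casein genes lie in the same region of chromosome 5, from Csn1s1 (chr5:87666208-87682578, plus strand) and Csn2 (chr5:87692624-87699630, minus strand) to Csn3 (chr5:87925579-87932665). Wap is on chromosome 11 and Glycam1, a mucin-like whey protein, on chromosome 15 (GRCm38, GENCODE release 21). The promoters of 4 milk genes are shown because casein promoters are the textbook targets of STAT5, whose core motif is TTCNNNGAA. That motif reads the same on both strands. RefSeq promoters (build GRCm38.p6, 250 bases before to 50 after the start) were found for 14 of the 19 milk protein genes, and 4 of the 14 (28.6%) held the motif, against 8.58% of the 11472 tested genes with a promoter and 9.55% of all 27025 gene symbols in that table. The 200 bases before the start are printed 5′ to 3′ in the direction of the gene, with the motif in capitals.
Csn1s1: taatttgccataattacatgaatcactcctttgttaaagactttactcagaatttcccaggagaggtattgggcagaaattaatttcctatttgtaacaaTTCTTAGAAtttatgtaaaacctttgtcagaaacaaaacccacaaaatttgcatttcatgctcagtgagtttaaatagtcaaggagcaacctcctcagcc
Csn2: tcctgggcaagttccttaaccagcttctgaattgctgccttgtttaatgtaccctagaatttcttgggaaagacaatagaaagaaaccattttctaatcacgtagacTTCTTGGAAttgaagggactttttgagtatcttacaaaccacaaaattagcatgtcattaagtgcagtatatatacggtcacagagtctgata
Glycam1: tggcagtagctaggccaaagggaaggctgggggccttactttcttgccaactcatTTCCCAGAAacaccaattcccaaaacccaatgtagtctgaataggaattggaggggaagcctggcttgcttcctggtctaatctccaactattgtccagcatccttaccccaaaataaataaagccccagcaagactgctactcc
Wap: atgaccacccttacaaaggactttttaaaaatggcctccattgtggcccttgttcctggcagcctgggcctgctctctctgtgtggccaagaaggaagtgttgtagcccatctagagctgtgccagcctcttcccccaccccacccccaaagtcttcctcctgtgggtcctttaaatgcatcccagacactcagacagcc
These stretches are chr5:87666008-87666207 (plus strand) for Csn1s1, chr5:87699426-87699625 (minus strand) for Csn2, chr15:103565082-103565281 (minus strand) for Glycam1 and chr11:6638650-6638849 (minus strand) for Wap. The RefSeq start of Csn2 lies inside the longer GENCODE gene given above, so the Csn2 stretch falls within that gene model. The motif began 100 bases before the start in Csn1s1, 93 in Csn2 and 145 in Glycam1, lay after the start in Csn1s2a, and these letters are not in the Wap window. Glycam1 rose from 39.5, 28.3 and 38.2 CPM to 6083, 3517 and 2912 CPM, a log2 change of 6.78 (SE 0.43), so the printed genes with and without the motif all rose.

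CPM is a share of each library, and on the deposited scale 418 genes were called higher and 13944 lower, with a median change of -1.59. Outside the milk protein genes the day 14 glands held 6631586, 5078235 and 5902204 counts and the non-lactating glands 14488462, 7001607 and 15810139. When CPM was recomputed without these 19 genes (non-milk CPM), 2237 of 16143 genes were called higher and 4103 lower, which is 13.9% and 25.4% (39.3% together), with a median of -0.20. Of the calls, 35.3% were then higher, against 2.91% on the deposited scale, 48.1% in limma voom on recovered reads and 69.7% after median-centring each gland. Voom called 39.1% of genes (18.8% higher and 20.3% lower) and median-centring 50.6% (35.3% and 15.4%). Leaving the milk protein genes out adds 1.78 to every log2 change of a well-counted gene, so that a gene with a non-milk change between 0 and about 1.78 reads as lower on the deposited scale. Among the 5435 genes called on both scales, 402 were higher and 4103 lower on both, and 930 changed sign. The non-milk and voom calls shared 5481 genes with the same sign and 0 with opposite signs. All values that follow are non-milk CPM, log2 changes are differences of log2(non-milk CPM + 1), and a gene is said to have risen or fallen only where limma's adjusted p was under 0.05. Where a rising gene is noted as lower on the deposited scale, its log2 change there was below 0, whether or not it was called. The groups did not overlap for 50.7% of all genes. Counts of rising and falling genes in the lists below stand beside 13.9% higher and 25.4% lower over all genes tested.

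**Figure D2:**
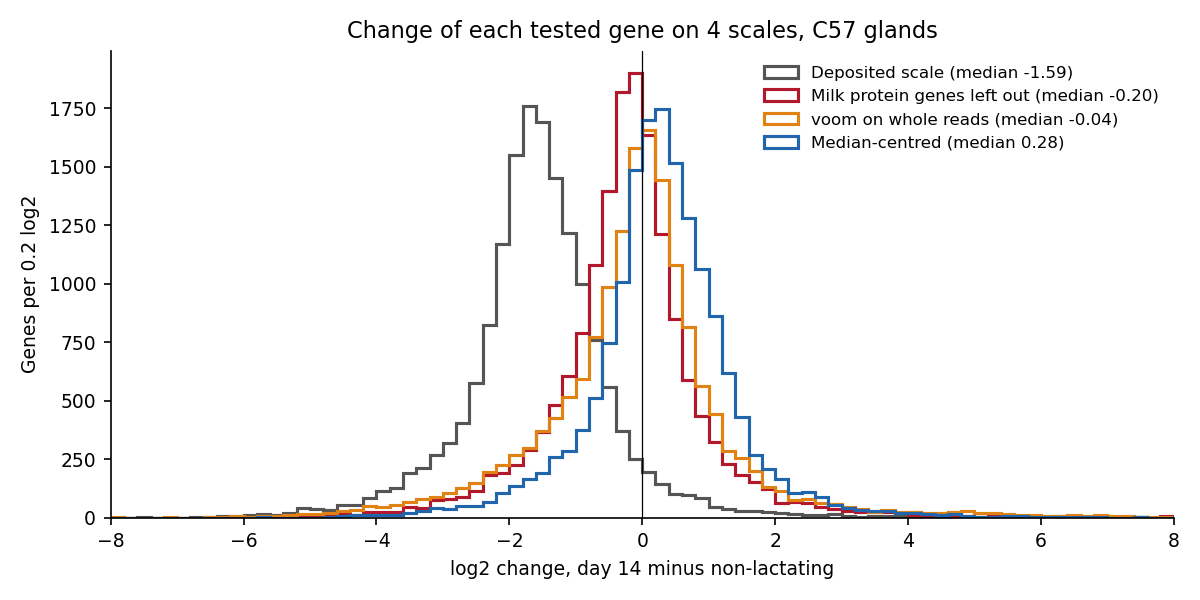
Number of genes per 0.2 log2 against the log2 change from non-lactating to day 14 C57 glands (x axis), on the deposited scale, without milk protein genes, in voom on whole reads and after median-centring. The deposited scale is shifted to the left as a whole, with a median of -1.59, while the other medians lie between -0.20 and 0.28.

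Of 13 genes for the membrane that wraps the fat droplet, all tested, 10 rose, 1 fell and 2 were not called (median 4.91, 3.13 on the deposited scale). Btn1a1, butyrophilin, was at 6892, 8312 and 7226 non-milk CPM on day 14 and at 28.2, 88.7 and 31.9 without lactation (log2 change 7.40, SE 0.28). Xdh, xanthine oxidoreductase, which binds butyrophilin at the membrane, was at 6161, 6379 and 8022 against 288, 224 and 311 (4.64, SE 0.23). Both were high in all 3 day 14 glands without overlap. Cidea, a lipid droplet fusion protein, was at 726, 1080 and 917 against 2.97, 0.55 and 7.37 (7.91, SE 0.42, adjusted p = 2.09e-12), and its log2 change was 7.28 without non-lactating mouse 2 and 8.50 without mouse 3. Plin2, the coat protein of the growing droplet, rose less (2.84, SE 0.32). Fabp3, a fatty acid carrier, reached 2592, 3115 and 2387 from 2.69, 5.10 and 2.91, a log2 change of 9.24 (SE 0.30). Cd36, the fatty acid translocase shared with adipocytes, was 1155, 1804 and 1717 against 1580, 1006 and 1544, overlapped and was not called (0.18, SE 0.35, adjusted p = 0.729).

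Fatty acid synthesis did not move as a block. Of 14 genes, 5 rose and 4 fell (median -0.13), and the count of higher genes was 2 without non-lactating mouse 2 and that of lower genes 2 without day 14 mouse 3. Olah, the thioesterase that ends chain growth early and so gives medium-chain fatty acids, rose from 1.83, 1.90 and 1.77 non-milk CPM to 952, 1488 and 1546 (8.84, SE 0.34, adjusted p = 8.78e-15). Acacb, the mitochondrial acetyl-CoA carboxylase, rose from 177, 58.1 and 218 to 939, 1915 and 2207 (3.58, SE 0.44). Fasn, fatty acid synthase itself, was at 12225, 14964 and 10473 on day 14 and at 16245, 7402 and 16846 without lactation and was not called (-0.03, SE 0.41, adjusted p = 0.968). The Fasn ranges overlapped, with non-lactating mouse 2 the lowest of the 6 glands. Acaca, the cytosolic carboxylase, rose with all mice (1.16, SE 0.36, adjusted p = 0.0136) and missed the threshold without non-lactating mouse 2 (0.66, adjusted p = 0.134). Mlxipl, the sugar-responsive activator of lipogenesis, fell by 2.95 and the lipase gene Pnpla3 by 1.83 on the log2 scale. Adipocytes make and store fat too. The white adipocyte genes summed to 6183, 5092 and 5756 non-milk CPM on day 14 and to 29222, 19532 and 31156 without lactation, and their part in these results was not tested.

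Chain-modifying enzymes moved in both directions. Of 19 desaturases and elongases tested (of 20 measured), 7 rose and 5 fell (median -0.05, -1.56 on the deposited scale). The delta-5 desaturase Fads1 was at 988, 1641 and 1243 non-milk CPM against 127, 124 and 135 (3.29, SE 0.27). Its partner Fads2, the delta-6 desaturase, changed by 3.46 (SE 0.28). Elovl5, the elongase of the same route, was at 1108, 2007 and 1646 against 79.2, 68.6 and 71.1 (4.38, SE 0.27). No day 14 gland overlapped with the controls for these 3 genes. Fads3, a related gene, went the other way, from 295, 202 and 305 to 21.6, 28.3 and 32.6 (-3.23, SE 0.33). Elovl6, which extends palmitate, fell from 817, 210 and 687 to 156, 127 and 97.8 (-1.96, SE 0.41), and by 2.57 without non-lactating mouse 2. Scd1, the stearoyl-CoA desaturase, was at 14676, 15232 and 10437 on day 14 and at 55819, 15754 and 51000 without lactation (-1.42, adjusted p = 0.0222). That call was lost without day 14 mouse 3 (adjusted p = 0.084), non-lactating mouse 1 (0.122) or non-lactating mouse 3 (0.106), and the change was -2.01 without non-lactating mouse 2, the gland with the low Scd1 value. Scd2 rose from 478, 366 and 312 to 1507, 906 and 818 (1.45, SE 0.34, adjusted p = 0.00161; lower on the deposited scale).

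In fatty acid uptake and triglyceride assembly, 7 of 28 genes rose and 13 fell (median -0.66). Lpl, the lipase that frees fatty acids from plasma lipoproteins, was at 3199, 3516 and 3852 non-milk CPM on day 14 and at 5330, 4864 and 5333 without lactation, without overlap, and was not called (-0.56, SE 0.34, adjusted p = 0.212). The glycerol-3-phosphate acyltransferases, which start glycerolipid assembly, differed by isoform. Gpat4 was at 201, 192 and 198 against 48.1, 45.0 and 69.0 (1.87, SE 0.19), while Agpat9, an older symbol of Gpat3, fell from 65.3, 50.1 and 88.9 to 6.94, 1.48 and 2.96 (-3.98, SE 0.53). Lpin1, a phosphatidate phosphatase, was at 1806, 1538 and 1925 against 336, 226 and 509 (2.37, SE 0.32). So did the acyltransferases for the later steps. Agpat1 rose (1.69, SE 0.19; lower on the deposited scale) and Agpat2, the adipocyte form, fell from 310, 175 and 365 to 44.3, 26.7 and 29.7 (-3.01, SE 0.39). Dgat2, one of the 2 enzymes that close the triglyceride, fell from 800, 793 and 848 to 49.2, 20.7 and 10.7 (-5.13, SE 0.55, adjusted p = 1.60e-07). Dgat1, the other enzyme, was at 89.7, 67.5 and 63.0 against 141, 83.4 and 169 and overlapped between groups (-0.79, SE 0.26, adjusted p = 0.0185), a call that was lost without day 14 mouse 2 (adjusted p = 0.0607) or 3 (0.0758) and without non-lactating mouse 1 (0.0704) or 3 (0.121). Fabp4, the adipocyte fatty acid carrier, fell by 3.66 (SE 0.33).

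Sterol synthesis moved in one direction. Of 27 genes of cholesterol synthesis and its SREBP control, 18 rose and 0 fell, with 9 not called, at a median of 1.06 that was -0.61 on the deposited scale. Hsd17b7, a late demethylation enzyme, rose from 10.3, 11.7 and 9.36 non-milk CPM to 118, 143 and 171 (3.65, SE 0.21, adjusted p = 1.37e-11). Fdps, which makes farnesyl pyrophosphate, rose from 18.7, 11.6 and 16 to 121, 91.6 and 84.8 (2.61, SE 0.22). Sqle, the rate-limiting squalene epoxidase, rose from 32.2, 32.9 and 27.0 to 167, 187 and 165 (2.46, SE 0.17). All 3 were high in every day 14 gland. Mvd and Cyp51 changed by 2.45 and 2.40, and Sc5d, a late desaturase, was not called (-0.16, SE 0.19).

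Lactose is made in the Golgi from glucose and UDP-galactose by B4galt1 with Lalba. Of 19 genes for lactose synthesis and glucose entry, 9 rose and 3 fell (median 0.49, -1.08 on the deposited scale). B4galt1 was at 3781, 4846 and 4329 non-milk CPM on day 14 and at 114, 217 and 175 without lactation, without overlap (4.71, SE 0.27, adjusted p = 1.02e-11). Glucose carriers moved in both directions. Slc2a1 (GLUT1), the main carrier of secretory cells, rose from 18.5, 34.8 and 20.8 to 202, 192 and 163 (2.91, SE 0.25). Slc5a1, a sodium-coupled glucose carrier, rose from 3.17, 10.6 and 3.07 to 64.3, 87.7 and 86.0 (3.78, SE 0.29), and Slc2a9, a urate and hexose carrier, by 3.15 (SE 0.21). Slc2a4 (GLUT4), the insulin-dependent carrier of fat and muscle, fell from 134, 72.6 and 154 to 11.7, 11.5 and 5.85 (-3.49, SE 0.40). The other falling members were the glycolytic isomerase Gpi1 (-0.80, SE 0.21) and Pgm2 (-1.90, SE 0.24).

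Calcium genes rose and fell in about equal number, often within a family. Of 18 pumps and channels tested (of 20 measured), 7 rose and 6 fell (median 0.02, -1.19 on the deposited scale). Atp2b2, the plasma membrane calcium pump that loads milk with calcium, was at 1051, 2073 and 2437 non-milk CPM on day 14 and at 3.59, 3.96 and 3.45 without lactation (8.55, SE 0.39, adjusted p = 2.46e-13). Its relative Atp2b4 was at 65.6, 62.4 and 67.3 against 304, 226 and 317 (-2.09, SE 0.26). The 2 pumps thus moved in opposite directions, and neither overlapped between the groups. Atp2c2, a calcium pump of the secretory route, rose from 5.25, 13.1 and 5.98 to 372, 389 and 404 (5.52, SE 0.26). Orai1, the pore of store-operated calcium entry, rose from 10.4, 13.7 and 13.1 to 230, 177 and 152 (3.79, SE 0.21), while Stim1, the store sensor that opens it, fell from 123, 113 and 121 to 37.9, 30.5 and 32.1 (-1.80, SE 0.23). The nucleobindins, calcium-binding proteins of the Golgi, split as well. Nucb2 rose from 21.3, 24.6 and 17.6 to 385, 408 and 295 (4.04, SE 0.18) and Nucb1 fell from 125, 94.4 and 105 to 36.0, 34.3 and 31.7 (-1.64, SE 0.19). Pthlh, the hormone through which the lactating gland draws calcium from bone, rose from 1.28, 0.95 and 1.08 to 84.5, 135 and 115 (5.72, SE 0.34).

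Of 23 phosphate and zinc carriers and metallothioneins tested (of 26 measured), 14 rose and 1 fell (median 1.20, -0.52 on the deposited scale). Slc34a2, a sodium-phosphate cotransporter that was counted with the globule membrane genes, rose from 4.21, 6.47 and 6.07 non-milk CPM to 5117, 6356 and 5481 (9.76, SE 0.38, adjusted p = 1.22e-14). Slc39a8 (ZIP8), an importer of zinc and manganese, rose from 16.1, 22.7 and 16.8 to 2088, 2481 and 2181 (6.86, SE 0.24), and Slc30a2, which loads zinc into secretory vesicles, from 0.55, 1.43 and 0.28 to 65.5, 59.9 and 59.6 (5.21, SE 0.25). None of the 3 overlapped between the groups. Slc39a14 rose by 2.97 (SE 0.22), and the single falling member was the Golgi zinc exporter Slc39a13 (-1.35, SE 0.20). Mt2, a metallothionein, spread widely on day 14, at 420, 57.5 and 162 against 15.5, 22.7 and 17.5 (3.04, SE 0.84), and its log2 change was 2.33 without day 14 mouse 1 and 3.76 without mouse 2. Slc39a4 was at 42.1, 22.2 and 7.71 against 0.93, 4.16 and 0.63 (3.02, SE 0.75), and at 3.64 without day 14 mouse 3.

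Water, chloride and monocarboxylate transport held 6 rising and 10 falling genes of 23 tested (of 25 measured; median -0.62). Aqp9, which also passes glycerol and urea, rose from 2.42, 4.34 and 2.18 non-milk CPM to 62.7, 35.5 and 37.6 (3.53, SE 0.32), and Aqp3 rose by 2.68 (SE 0.44). Aqp5, the water channel of ducts and glands, fell from 61.7, 114 and 51.2 to 1.21, 1.58 and 0 (-5.34, SE 0.64), and Aqp7, the glycerol channel of adipocytes, from 178, 113 and 182 to 17.6, 6.30 and 10.7 (-3.74, SE 0.41). Slc12a2 (NKCC1), the sodium, potassium and chloride cotransporter, fell from 1509, 4199 and 1396 to 131, 122 and 120 (-4.04, SE 0.51). Slc12a4 fell by 2.81.

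Amino acid carriers rose and fell in about equal number, 7 and 8 of 29 tested (of 30 measured; median -0.27, and 0.29 after median-centring). Slc7a5 (LAT1), which takes up large neutral amino acids, rose from 12, 15.5 and 15.7 non-milk CPM to 919, 638 and 487 (5.43, SE 0.31). Its heavy chain Slc3a2 rose by 1.90 (SE 0.19) and the glutamine carrier Slc38a2 by 2.87 (SE 0.28). The neutral amino acid exchangers of the SLC1 family moved in opposite directions. Slc1a4 (ASCT1) rose from 5.73, 10.1 and 9.01 to 156, 262 and 235 (4.56, SE 0.24), and Slc1a5 (ASCT2) fell from 836, 550 and 1019 to 62.4, 21.4 and 26.6 (-4.52, SE 0.40, adjusted p = 9.93e-09). Slc7a10, a small neutral amino acid carrier of adipocytes, fell from 132, 115 and 164 to 8.60, 2.17 and 2.54 (-4.85, SE 0.49).

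**Figure D3:**
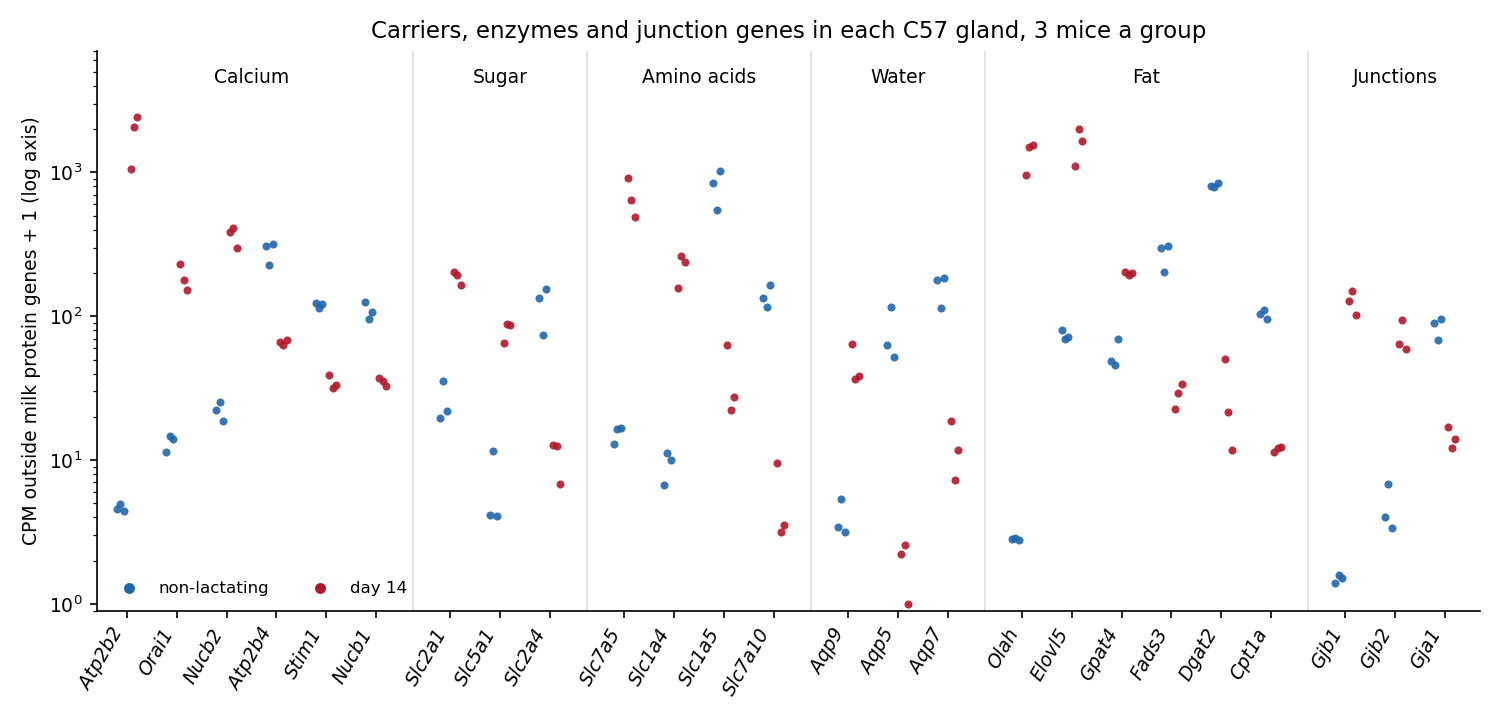
Non-milk CPM + 1 (log axis) of 25 transport, fat and junction genes in each of 3 non-lactating (blue) and 3 day 14 (red) C57 glands, 1 point per mouse. Each of the 6 classes holds genes that rose and genes that fell without overlap between the groups, as with Atp2b2 (8.55) and Atp2b4 (-2.09) or Slc1a4 (4.56) and Slc1a5 (-4.52). The 25 genes were selected from those that rose or fell, so this mix of directions was set by the choice. Members that were not called, such as Fasn, are not drawn.

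Some members of the prolactin circuit were called and others not. Of 20 genes, 5 rose and 6 fell (median -0.03), with 3 rising without day 14 mouse 2. Prlr, the prolactin receptor, was at 298, 416 and 417 non-milk CPM on day 14 and at 1225, 3466 and 1203 without lactation (-2.21, SE 0.45, adjusted p = 0.00038). Elf5, the transcription factor of alveolar cells, was at 964, 1164 and 1113 against 26.6, 87.8 and 30.7 (4.66, SE 0.28, adjusted p = 2.12e-11). Receptor and factor thus moved in opposite directions without overlap in either gene. Stat5a was at 201, 218 and 155 against 112, 218 and 133 and was not called (0.35, adjusted p = 0.246), but passed without non-lactating mouse 2 (0.63, adjusted p = 0.0326). Stat5b (0.50, adjusted p = 0.0728) passed without day 14 mouse 3 (0.64, adjusted p = 0.0473). Nfib, a cofactor of STAT5 at milk genes, rose by 1.25 and the kinase Akt1 by 1.78, and the first of these read as lower on the deposited scale. Cav1, caveolin-1, fell from 1435, 1173 and 1360 to 135, 115 and 108 (-3.46, SE 0.31), and the growth hormone receptor Ghr by 3.13 (SE 0.33). Socs3, a feedback inhibitor of JAK-STAT signalling, fell from 66.5, 222 and 82.4 to 21.8, 2.76 and 4.74 (-3.77, SE 0.74), and the change was -4.54 without day 14 mouse 1.

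Genes of the hormone-sensing epithelium, the luminal cells that carry estrogen and progesterone receptors, were low on day 14. Of 15 genes tested (of 16 measured), 0 rose and 12 fell (median -2.05). Pgr, the progesterone receptor, fell from 167, 687 and 164 non-milk CPM to 10.2, 9.85 and 7.03 (-4.75, SE 0.63), and by 4.07 without non-lactating mouse 2. Foxa1, which opens chromatin for the estrogen receptor, fell from 202, 470 and 178 to 9.95, 9.85 and 13.9 (-4.41, SE 0.65), and Tbx3 from 96.1, 248 and 123 to 5.88, 8.27 and 10.2 (-4.01, SE 0.38). In each, non-lactating mouse 2 was the highest gland. Its sum over the list was 6156 non-milk CPM, against 2673 and 2618 in the other non-lactating glands and 887 to 1128 on day 14. Esr1, the estrogen receptor itself, was at 220, 250 and 254 against 216, 231 and 205, overlapped and was not called (0.15, SE 0.23, adjusted p = 0.662).

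Genes of the secretory pathway rose on the non-milk scale and were lower at the median on the deposited scale. Of 39 genes for folding in the endoplasmic reticulum and the unfolded protein response, 23 rose and 5 fell (median 0.66, -1.0 deposited), and 2 fell without day 14 mouse 1 or non-lactating mouse 2 and 3 without day 14 mouse 3 or non-lactating mouse 1. Xbp1, the transcription factor that expands the endoplasmic reticulum, rose from 159, 234 and 218 non-milk CPM to 1144, 1009 and 1023 (2.39, SE 0.22). Fkbp11, a folding enzyme of secretory cells, rose from 1.90, 1.90 and 1.04 to 31.1, 47.4 and 36.8 (3.91, SE 0.25). Hspa5 (BiP), the main chaperone, rose from 86.3, 78.2 and 73.3 to 254, 259 and 211 (1.59, SE 0.18, adjusted p = 3.63e-07). None of these overlapped, and of the 3 only Hspa5 read as lower on the deposited scale. In the integrated stress response, 15 of 29 tested genes rose and 3 fell (of 30 measured; median 0.91, -0.75 deposited), with 1 falling without day 14 mouse 1 and 5 without mouse 2. Its main effector Atf4 rose by 1.58 (SE 0.19; lower on the deposited scale), the proline synthesis gene Aldh18a1 by 3.33 (SE 0.30) and asparagine synthetase, Asns, by 1.91 (SE 0.29), while the tryptophanyl-tRNA synthetase Wars fell by 1.31 (SE 0.19).

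Of 62 genes for COPI and COPII coats, translocation and Golgi trafficking, 37 rose and 3 fell, or 1 without non-lactating mouse 3 (median 0.60, -1.14 deposited). Sec11c, the signal peptidase subunit, rose from 9.97, 11.2 and 7.50 non-milk CPM to 64.6, 61.6 and 57.9 (2.58, SE 0.31), and Ssr4, of the translocon, from 55.4, 44.9 and 50.1 to 203, 414 and 186 (2.30, SE 0.27). The paralogs of a COPII coat subunit moved in opposite directions. Sec23b rose from 36.1, 53.4 and 34.6 to 131, 143 and 125 (1.68, SE 0.20; lower on the deposited scale), and Sec23a fell from 67.3, 64.4 and 61.5 to 38.5, 39.4 and 40.5 (-0.69, SE 0.18). Sec16b, which marks the sites where the coat forms, rose by 2.46 (SE 0.26).

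Few genes of the respiratory chain were called. Transcripts of the mitochondrial genome took 8.32%, 11.78% and 12.58% of non-milk counts on day 14 and 12.37%, 10.75% and 14.71% without lactation (10.89% ± 2.26 and 12.61% ± 1.99, SD, n = 3), and the exact two-sided permutation p was 0.5. Of 13 mitochondrial genes 1 rose and 2 fell, of 37 nuclear subunits of complex I 2 rose and 5 fell, and of 43 tested subunits of complexes II to V 1 rose and 4 fell (medians -0.24, -0.20 and -0.14; 0.10, 0.09 and 0.14 after median-centring). The falling counts were 0, 0 and 1 in voom and 0, 2 and 3 in the fit of the 6 samples alone. Without day 14 mouse 1 or 2, or non-lactating mouse 1 or 3, 0 mitochondrial genes fell. The count of falling complex I genes was 1 without day 14 mouse 3 and 2 without non-lactating mouse 1 or 3. mt-Co1, the core of cytochrome oxidase, was at 30614, 42345 and 36192 against 41684, 37431 and 49263 and was not called (-0.24, SE 0.41). In the mitochondrial unfolded protein response and proteases, 5 of 30 rose and 6 fell, with 3 rising without day 14 mouse 2. Over all genes tested 13.9% rose and 25.4% fell, so the counts of this list are near that background. Clpx, the chaperone of a matrix protease, rose from 32.2, 46.9 and 31.8 to 209, 168 and 189 (2.34, SE 0.16), while the chaperones Hspe1 and Trap1 fell by 1.03 and 1.04. Sirt3, a matrix deacetylase, was at 11.1, 11.9 and 12.6 against 11.8, 14.7 and 11 (-0.06, adjusted p = 0.827), and superoxide dismutase Sod2 was not called either (0.13, adjusted p = 0.638). Ppargc1a, a coactivator of mitochondrial genes, fell from 14.5, 13.1 and 19.1 to 4.60, 1.58 and 4.49 (-1.93, SE 0.39).

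Of 28 genes for the citric acid cycle and pyruvate entry, 6 rose and 10 fell (median -0.24). The pyruvate dehydrogenase subunit Pdhb rose by 1.64 (SE 0.25), its kinase Pdk1 by 1.68 (SE 0.15) and the pyruvate carriers Mpc1 and Mpc2 by 1.22 and 1.16, all of which read as lower on the deposited scale. The isocitrate dehydrogenases Idh1, Idh2 and Idh3a fell by 2.53, 0.98 and 1.83. Of 28 tested genes for mitochondrial fatty acid oxidation (of 29 measured), 3 rose and 21 fell (median -0.93). Cpt1a, which admits long-chain fatty acids to mitochondria, fell from 102, 110 and 95.5 non-milk CPM to 10.4, 11.1 and 11.4 (-3.11, SE 0.23, adjusted p = 7.10e-10). Acadm and Acads, the medium- and short-chain dehydrogenases, fell by 1.64 and 1.59. The rising members were Ucp3, from 14.6, 9.85 and 17.3 to 297, 90.2 and 206 (3.61, SE 0.43), and with smaller changes Ucp2 (1.41) and Ppard (1.33), both lower on the deposited scale. Adipocytes also burn and store fat, and the white adipocyte sums given above moved with this list. Their part in it was not tested.

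Among 35 peroxisome genes, 4 rose and 15 fell (median -0.42). Abcd2, a fatty acid carrier of the peroxisome, fell from 344, 251 and 363 non-milk CPM to 24.3, 10.6 and 13.3 (-4.29, SE 0.38) and Phyh by 3.35 (SE 0.26), while Acox2, which shortens bile acid precursors and branched chains, rose from 1.35, 1.08 and 1.04 to 16.3, 21.2 and 16.7 (3.14, SE 0.30). Lysosomal genes were evenly split, with 11 rising and 10 falling of 43 (median 0.13, -1.56 deposited). Lipa, the acid lipase, rose from 98.7, 94.8 and 86.9 to 584, 588 and 811 (2.79, SE 0.20), and Ctsc by 2.03, while Hexa fell by 2.06 and Ctsk by 2.0. Of 30 autophagy genes, 9 rose and 4 fell, with 5 rising without non-lactating mouse 3 (median 0.20, -1.54 deposited). Nbr1 and Wipi1 rose by 1.27 and 1.69, both lower on the deposited scale, and the mitophagy receptor Bnip3 fell by 1.75 and Atg7 by 1.23. Of 31 NRF2 and antioxidant genes tested (of 32 measured), 5 rose and 10 fell, with 2 rising without day 14 mouse 1 and 3 without day 14 mouse 2 or non-lactating mouse 1. The counts with all mice are near the shares over all genes tested, 13.9% higher and 25.4% lower. Prdx4, the peroxiredoxin of the endoplasmic reticulum, rose from 25.2, 22.7 and 21.1 to 102, 247 and 154 (2.73, SE 0.28), and Sod3, the extracellular superoxide dismutase, fell from 538, 330 and 453 to 30.0, 10.3 and 12.2 (-4.70, SE 0.39). Hmox1, heme oxygenase, was called lower (-1.19, adjusted p = 0.048), a call that was lost without day 14 mouse 2 (adjusted p = 0.169) or 3 (0.0977) and without non-lactating mouse 1 (0.154) or 3 (0.111).

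Genes known from involution, the regression after weaning, were mixed at peak lactation. Of 30 tested (of 33 measured), 10 rose and 10 fell (median 0.63, -1.03 deposited). Lcn2, lipocalin 2, was at 6710, 4596 and 2608 non-milk CPM on day 14 and at 130, 197 and 123 without lactation (4.87, SE 0.43, adjusted p = 1.02e-08). Clu, the secreted chaperone clusterin, rose from 118, 241 and 120 to 3347, 3229 and 1855 (4.16, SE 0.44). Cebpd and Lbp rose by 2.81 and 2.79 and Stat3 by 1.0 (adjusted p = 0.00159; lower on the deposited scale). Igfbp5, the binding protein that blocks survival signals in involution, fell from 1563, 3139 and 1271 to 238, 136 and 137 (-3.48, SE 0.74, adjusted p = 0.000606). Serpina3n, an acute phase serpin, was at 27.2, 3.74 and 10.5 against 303, 161 and 205 (-4.23, SE 0.55), with -4.87 without day 14 mouse 1 and -3.59 without mouse 2. Haptoglobin, Hp, was at 6.48, 0.39 and 3.39 against 136, 39.5 and 83.7 (-4.44, SE 0.64), and at -3.76 without day 14 mouse 2. Osmr, the oncostatin M receptor, fell by 1.84 (SE 0.34).

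The route of IgA into milk was high. Of 14 antibody secretion genes tested (of 15 measured), 11 rose and 2 fell (median 3.24, 1.72 deposited). Pigr, the receptor that carries IgA across the epithelium, was at 3320, 4389 and 3667 non-milk CPM on day 14 and at 4.62, 8.43 and 5.72 without lactation (9.05, SE 0.26, adjusted p = 1.46e-16). Ccl28, the chemokine that draws IgA plasma cells, rose from 5.66, 13.1 and 6.86 to 1013, 1947 and 1474 (7.31, SE 0.46). The antibody genes of those cells rose as well, Igha from 19.7, 6.83 and 10.1 to 1215, 1344 and 1313 (6.73, SE 0.70) and Jchain from 7.83, 5.58 and 5.82 to 235, 285 and 256 (5.14, SE 0.59). All 4 were high in each day 14 gland. Ighm, the IgM constant region, was called lower (-2.08, adjusted p = 0.0195), which was lost without day 14 mouse 2 (adjusted p = 0.0866) or 3 (0.055) or non-lactating mouse 2 (0.0982), and Sdc1 fell by 1.68 (SE 0.25). Of 13 B cell genes 0 rose and 1 fell, namely Ebf1 (-3.02, SE 0.28), which adipocyte precursors also express. Of 15 T cell genes limma called 0, with 0 at an unadjusted p under 0.05, and voom also called 0. Median-centring called 6 of them higher (median 1.40, against 0.28), and the fit of the 6 samples alone called 2 higher. Summed T cell genes were at 126, 29.2 and 32.3 non-milk CPM on day 14 and 37.7, 43.2 and 38 without lactation, so that day 14 mouse 1 was highest. Of 17 macrophage genes, 1 rose and 7 fell (median -0.91), with 11 falling without non-lactating mouse 2, and with any 1 of the 6 mice left out 0 rose. The scavenger receptor genes Cd163 and Mrc1 fell by 1.83 and 1.88.

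Adipocyte and stromal genes fell almost throughout. Of 24 white adipocyte genes 0 rose and 23 fell (median -3.85), of 33 collagen and matrix genes 1 rose and 32 fell (-2.77), of 18 fibroblast genes 1 rose, 0 without day 14 mouse 2 or 3 or non-lactating mouse 2, and 16 fell (-2.47) and of 16 endothelial genes 0 rose and 14 fell (-1.38). Adipoq, adiponectin, was at 45.7, 24.3 and 11.9 non-milk CPM on day 14 and at 987, 463 and 962 without lactation (-4.94, SE 0.51). Plin1, the droplet coat of adipocytes, was at 53.8, 19.8 and 24.4 against 1076, 750 and 1187 (-5.01, SE 0.43). Neither was at 0 in any gland. Col3a1 fell from 3118, 1577 and 2348 to 307, 269 and 181 (-3.19, SE 0.40), and the fibroblast genes Dpt and Gsn fell by 4.01 and 3.92. Tnc, tenascin C, was the only collagen and matrix gene that rose, from 24.4, 16.4 and 20.3 to 162, 105 and 108 (2.55, SE 0.27). Vwf and Cd34 of endothelium fell by 2.11 and 2.01, while Kdr, the main VEGF receptor, was at 74.7, 73.3 and 90.3 against 79.8, 86.8 and 90.7 and was not called (-0.11, SE 0.28).

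**Figure D4:**
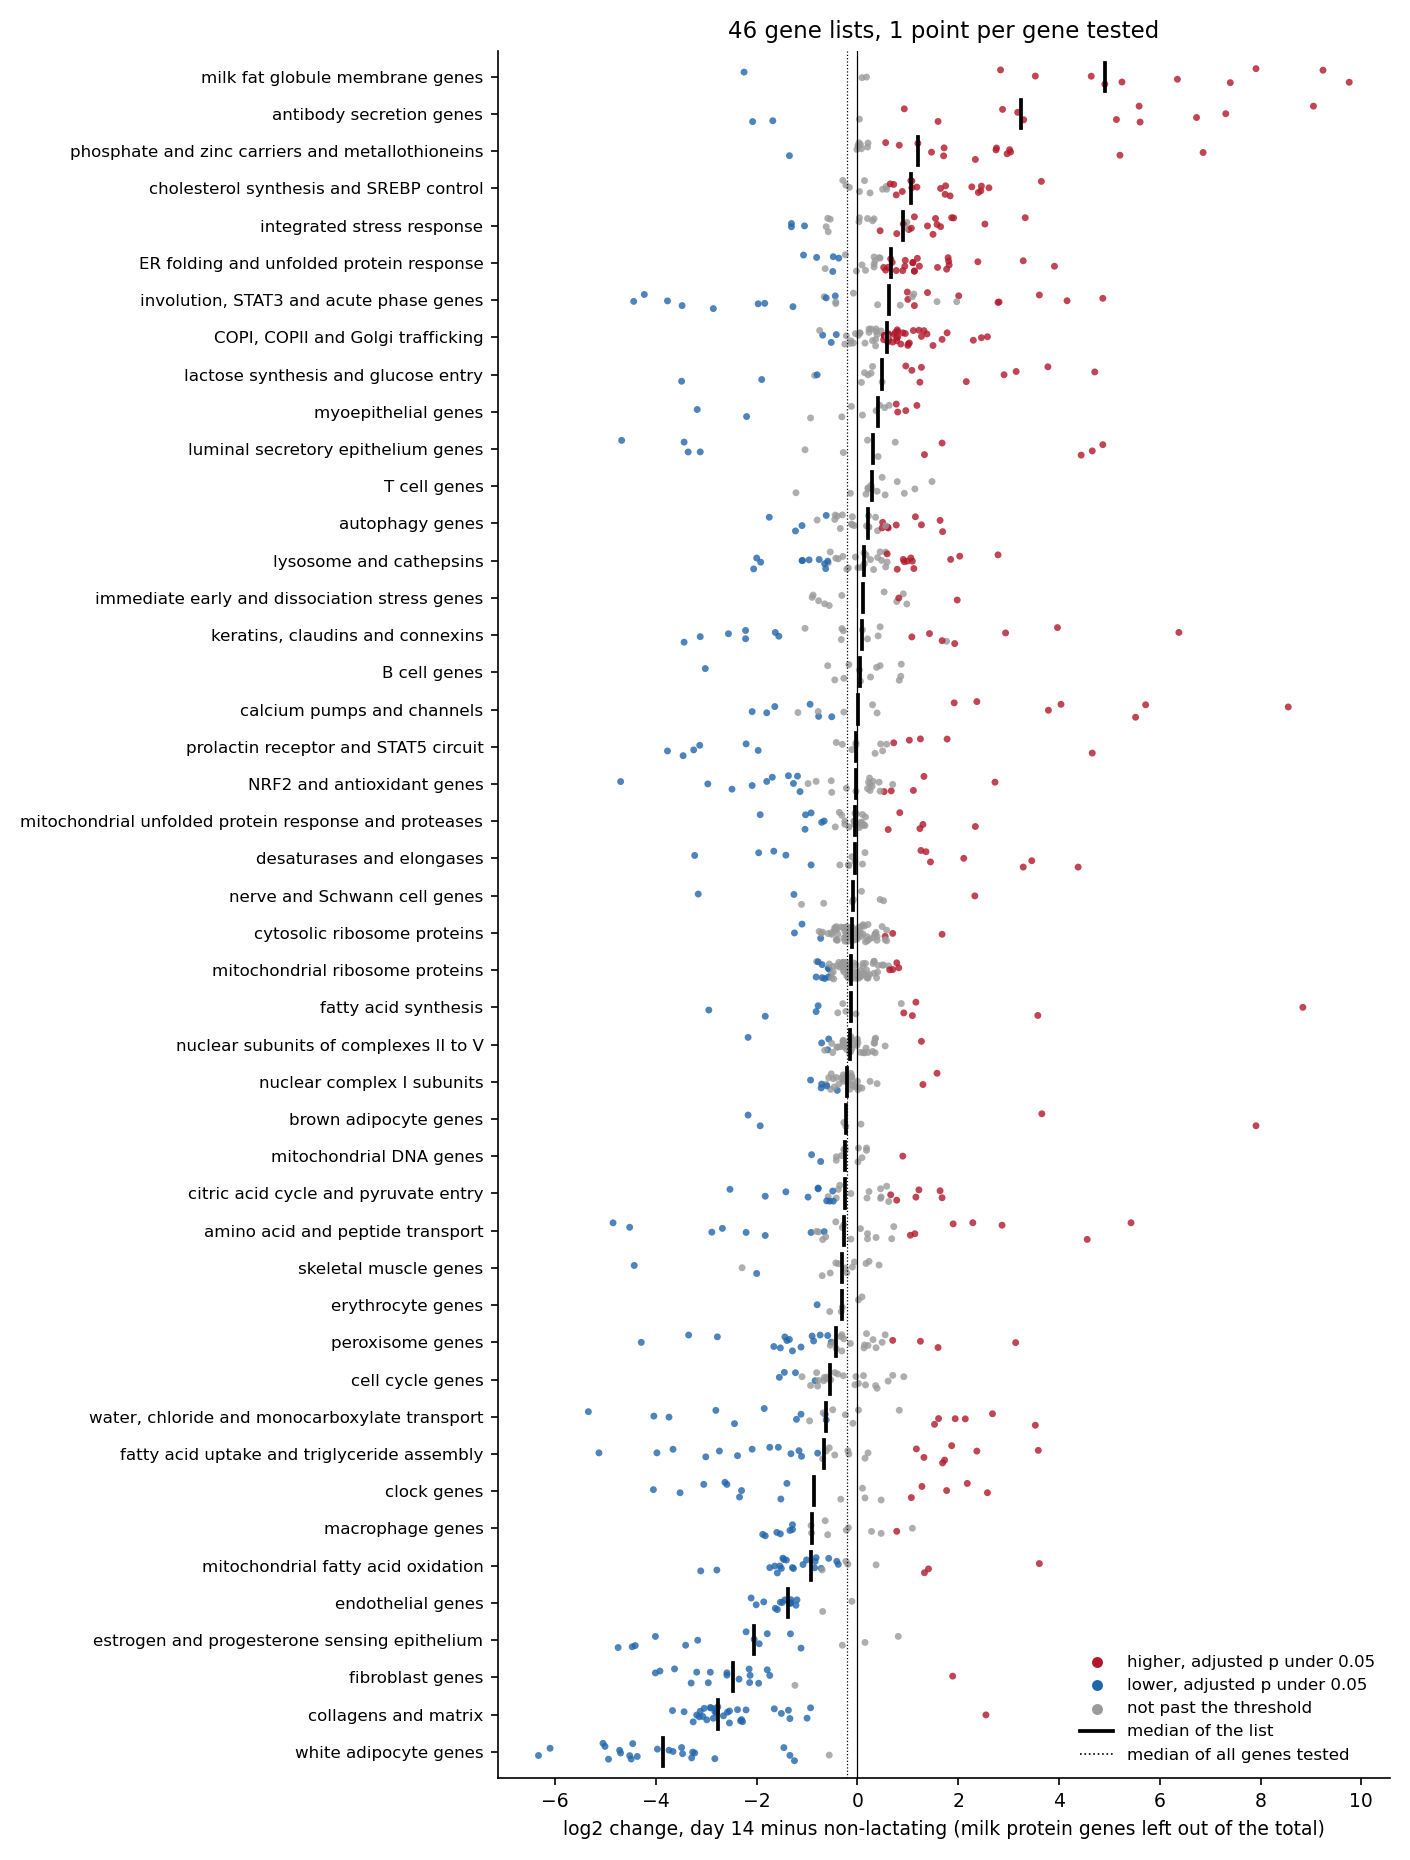
Log2 change from non-lactating to day 14 C57 glands (x axis, without milk protein genes) of each tested gene in 46 gene lists, ordered by their medians (black bars); red points rose, blue points fell and grey points were not called. Medians run from -3.85 for white adipocyte genes to 4.91 for milk fat globule membrane genes, beside -0.20 for all genes tested (dotted line).

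Epithelial genes did not share 1 direction. Of 14 luminal secretory genes tested outside the milk protein list, 5 rose and 4 fell (median 0.30, -0.66 deposited). Elf5 and Lcn2, both described above, were among those that rose. The list, Lcn2 included, summed to 9553, 7282 and 5285 non-milk CPM on day 14. Without lactation the sums were 992, 2069 and 959. Kit, the receptor of luminal progenitors, fell from 120, 293 and 113 non-milk CPM to 4.0, 6.40 and 5.51 (-4.68, SE 0.67), Aldh1a3 changed by -3.36 and the keratins Krt7 and Krt19 by -3.12 and -3.44, while Krt18 was not called (-1.04, SE 0.54, adjusted p = 0.137). Gap junction genes moved in both directions. Gjb1 (connexin 32) rose from 0.41, 0.59 and 0.51 to 127, 150 and 101 (6.38, SE 0.22, adjusted p = 1.50e-15) and Gjb2 (connexin 26) from 3.00, 5.85 and 2.37 to 63.0, 93.0 and 57.9 (3.97, SE 0.51), whereas Gja1 (connexin 43) fell from 89.1, 67.7 and 95.0 to 16.1, 11.1 and 13.1 (-2.56, SE 0.30). Cldn8, a tight junction claudin, rose by 2.94 (SE 0.35). Of 14 myoepithelial genes, 4 rose and 2 fell, with 2 rising without non-lactating mouse 3 (median 0.41, -1.28 deposited). Smooth muscle myosin, Myh11, rose by 1.18 (SE 0.22; lower on the deposited scale), and the actin Acta2, the keratins Krt5 and Krt14 and the oxytocin receptor Oxtr (113, 167 and 141 against 145, 211 and 113) overlapped and were not called. Lgr6 fell by 2.20 and Vim, also a stromal gene, by 3.18.

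Clock genes moved in both directions. Of 18, 5 rose and 9 fell (median -0.87). Npas2 and Arntl (BMAL1), activators of the clock, rose, the first from 13.9, 12.2 and 11 non-milk CPM to 63.5, 78.6 and 97.8 (2.58, SE 0.28) and the second from 14.0, 15.3 and 8.41 to 50, 63.3 and 64.2 (2.18, SE 0.35). Their targets fell, with Dbp at 2.19, 4.33 and 1.95 against 51.6, 54.3 and 77.3 (-4.05, SE 0.42), Per2 at a change of -3.05, Per3 at -2.63 and the repressor Nr1d1 at -2.59. Clock (0.15) and Per1 (0.10) were not called. Time of collection is not in the labels, so time and lactation cannot be told apart for these genes. Of 28 cell cycle genes, 0 rose and 4 fell (median -0.55, 0.40 after median-centring), among them the replication genes Mcm3 (-1.45) and Mcm6 (-1.55).

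The largest changes included genes with no set role in milk synthesis. Slc28a3, a nucleoside carrier, rose from 12.6, 30.7 and 14.2 non-milk CPM to 4527, 4136 and 5404 (7.96, SE 0.26). Ceacam10 rose from 0.41, 1.90 and 0.95 to 392, 499 and 230 (7.48, SE 0.35), Wfdc3 by 6.77 (SE 0.32), the adhesion receptor Adgrf1 by 6.60 (SE 0.25) and the transport ATPase Atp13a4 by 6.48 (SE 0.23). The largest changes were picked among genes whose groups did not overlap, so their separation was set by that choice. Among the decreases, the synuclein gene Sncg, counted above with the white adipocyte genes, fell from 371, 242 and 309 to 3.47, 3.74 and 1.52 (-6.33, SE 0.53). Npr3, the natriuretic peptide clearance receptor, fell from 502, 564 and 422 to 4.90, 4.82 and 6.69 (-6.27, SE 0.45), Nnat, another of the white adipocyte genes, by 6.10 (SE 0.55) and the stromal growth factor Fgf10 by 5.58 (SE 0.43). Also low on day 14 were Mmd (-5.33), Inhbb, a subunit of activin B (-5.13), and Tshr, the thyrotropin receptor (-5.09).

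The 3 day 14 glands varied among themselves. The median SD of a gene within the group was 0.28 on the log2 scale, and 0.27 in the non-lactating group. Mouse 1 had the lowest milk share and the highest Lcn2, Ltf and Mt2 of the 3, and its Orm1, an acute phase gene, was at 548 non-milk CPM against 221 and 33.3 in mice 2 and 3 and 115, 60.9 and 97.7 in the non-lactating glands. Orm1 was not called (0.85, SE 0.82). Orm1 has a near-identical copy, and the labels do not say how shared reads were counted.

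Between days 8 and 14 of lactation in C57 glands, 230 of 16143 genes were called higher on day 14 and 112 lower (1.42% and 0.694%, 2.12% together). These counts were 92 and 52 without day 14 mouse 1 and 111 and 41 without mouse 3. Wfdc2, a secreted protease inhibitor, was at 137, 18.1 and 51.4 non-milk CPM on day 14 and at 1.19, 0 and 0.376 on day 8 (5.16, SE 0.77, adjusted p = 0.000681). Mt2 was at 420, 57.5 and 162 against 2.88, 7.18 and 5.64 (4.74, SE 0.84, adjusted p = 0.00311). Cldn4 (adjusted p = 0.027) and Slc39a4 (0.0119) were also higher, but without day 14 mouse 1 their adjusted p was 0.135 and 0.0892. Lower on day 14 were Drd4, a dopamine receptor gene, at 0.452, 4.53 and 2.88 against 47.3, 80.4 and 88.8 (-4.49, SE 0.48) and the sialyltransferase St3gal4, at 8.97, 15.2 and 12.5 against 63.7, 93.4 and 86.3 (-2.65, SE 0.27). Chrdl2, a secreted BMP antagonist, stood at 55.1, 50.2 and 31.2 against 451, 325 and 345 (-3.04, SE 0.37). Day 21 values of these genes lay near those of day 14 (0.888, 2.01 and 2.35 for Drd4, 40.9, 37.3 and 41.0 for Chrdl2). Against day 21, limma called 0 genes in each direction (0.0%), with 173 genes at an unadjusted p under 0.05, and the likeness of the glands numbered 1 and 2 on both days, given above, applies to this count.

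**Figure D5:**
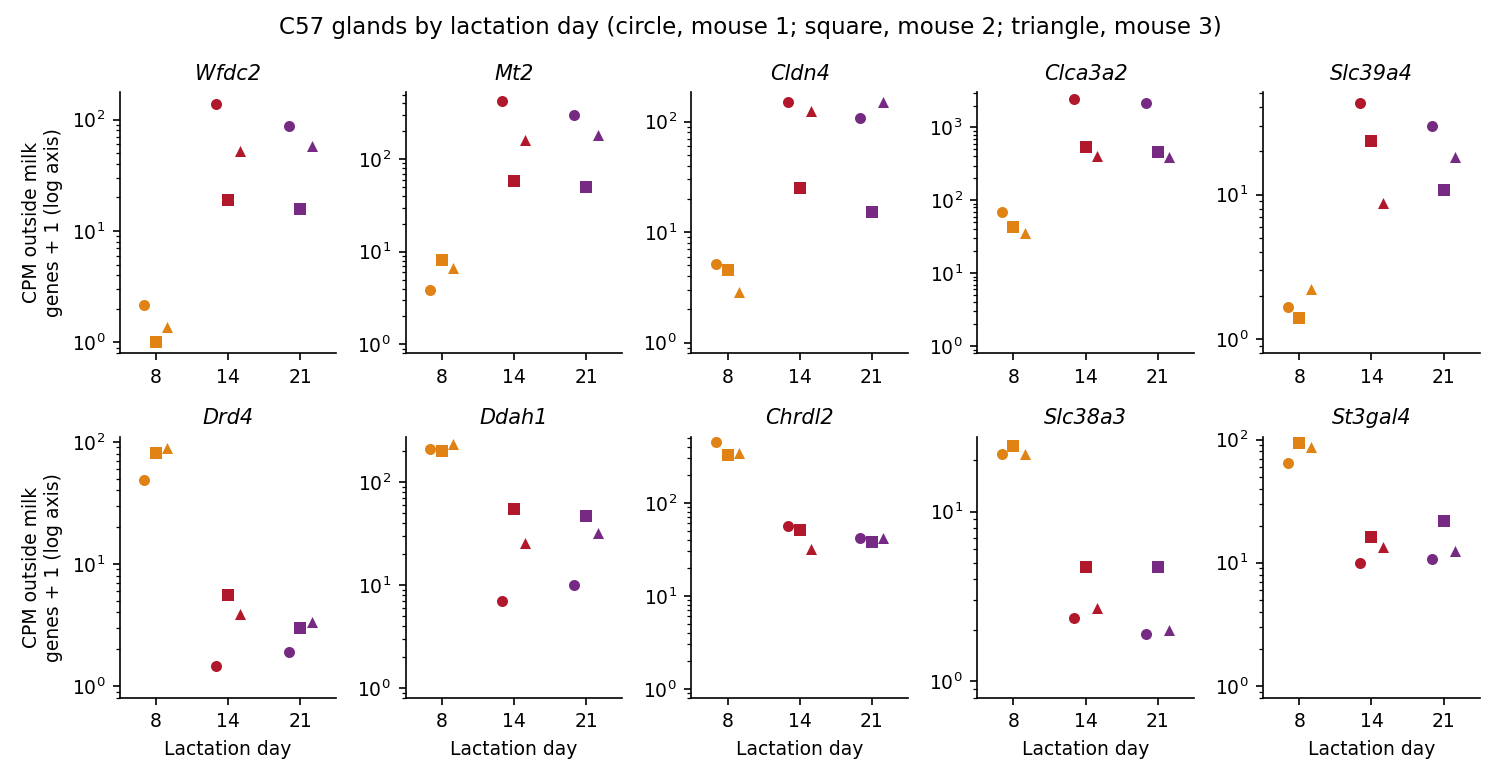
Non-milk CPM + 1 (log axis) of the 10 genes with the largest differences between days 14 and 8, in C57 glands on days 8, 14 and 21; circles, squares and triangles are the mice numbered 1, 2 and 3. The genes were picked among those with no overlap between day 8 and day 14 glands, so that separation was set by the choice. The order of the 3 mice on day 14 recurs on day 21 for Wfdc2, Mt2, Clca3a2, Ddah1, Slc38a3 and St3gal4. It does not recur for Cldn4, Slc39a4, Drd4 and Chrdl2.

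The change from non-lactating to day 14 was also compared with the same change in NZB mice. It was more positive in C57 than in NZB glands for 7 genes (0.0434% of 16143). For 109 genes (0.675%) it was less positive or more negative, which makes 0.719% together. Both counts rested on single glands, with 0 and 7 genes without C57 day 14 mouse 1, 2 and 30 without mouse 2, 1 and 21 without mouse 3, 16 and 303 without NZB non-lactating mouse 2 and 0 and 24 without NZB non-lactating mouse 3. Slc12a2 fell from 1509, 4199 and 1396 to 131, 122 and 120 non-milk CPM in C57 glands. In NZB glands it stood at 246, 775 and 89.2 without lactation and at 135, 126 and 337 on day 14, where the groups overlapped. The difference between the changes was -3.52 (SE 0.73, adjusted p = 0.0318), and the adjusted p was 0.0617 to 0.0678 when any of the 3 C57 day 14 mice was left out and 0.0706 without NZB non-lactating mouse 3.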

How the data were processed

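Polyadenylated RNA of whole glands was sequenced, per the labels' protocols. The authors deposited 1 table of log10(CPM + 1) values, with 32544 rows and 2 columns for each of 24 mice. Genome builds GRCm38 and mm10 are named in the submitters' processing notes, while for the aligner, counter and annotation nothing is given in the sources used here. The 2 columns of a mouse carry the names of the 2 read files and were averaged as CPM, which counts both as 1 sample. The values came out as whole reads (tolerance 0.05 reads), so depth could be recovered. Among the rows, 27 gene symbols had been turned into dates and are not reported by name.

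Values were converted to log2(CPM + 1), on the deposited scale and after leaving out 19 milk protein genes and rescaling the rest to a total of 1000000. Genes above 1 CPM in at least 3 samples were tested with limma (lmFit and eBayes with trend, version 3.58.1 in R 4.3.3) over 8 group means of 24 samples, with Benjamini-Hochberg adjustment over all genes tested and a threshold of 0.05. All p-values are two-sided, and a log2 change with the pseudocount of 1 understates the change of low genes. Single values were compared by exact permutation over all splits of the glands compared, in Python. The limma steps were also run on simulated reads with known changes. There the day 14 glands were drawn from the non-lactating means, so their high milk share was not simulated. Python 3.11.15, numpy 2.4.6, pandas 2.3.3 and matplotlib 3.10.9 were used. Alternatives were limma voom on the recovered reads, median-centring, other filters and pseudocounts, single columns, fewer samples in the fit, a replicate block and leaving out each mouse. The genes named were the 15 largest increases and 15 largest decreases with groups that did not overlap, members of the gene lists, and the 5 largest differences in each direction for day 8 and for the strains. The members and lists were chosen with earlier results of these data known.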

Additional observations from a re-analysis of the deposited data

Results flagged for a closer look

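For 10 genes the change from non-lactating to day 14 differed between C57 and NZB mice in limma's test of that difference. They are the 5 with the largest differences in each direction among 7 and 109 such genes. NZB non-lactating mouse 3 stood apart from mice 1 and 2, and no call was kept with the replicate number as a block. The changes of Slc34a2, Olah and Fabp3 were larger in C57 glands, by 2.51 (adjusted p = 0.0318), 2.27 (0.0318) and 1.96 (0.0322) on the log2 scale. Their day 14 ranges overlapped between the strains. Their non-lactating levels were lower in C57, at 4.21, 6.47 and 6.07 non-milk CPM for Slc34a2 against 43.8, 22.0 and 37.0 in NZB glands. Without C57 day 14 mouse 1, 2 or 3 the adjusted p of each of these 3 genes was above 0.05.

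For Irf4, a transcription factor of lymphocytes and adipocytes, the change was more positive in C57 than in NZB glands by 3.53 (adjusted p = 0.0341). In C57 glands Irf4 went from 27.4, 5.03 and 41.2 to 71.0, 21.6 and 32.0 non-milk CPM, overlapped and was not called (0.96, adjusted p = 0.178). In NZB glands it went from 112, 198 and 145 to 35.5, 27.2 and 14.3. The adjusted p of Irf4 was 0.101 without C57 day 14 mouse 1, 0.0685 without mouse 3 and 0.0806 without NZB non-lactating mouse 3. Igtp, an interferon-induced GTPase, differed by 2.15 (adjusted p = 0.0461). That call was lost on the deposited scale (0.0597), without C57 day 14 mouse 1 (0.124) or 2 (0.0961) and without NZB non-lactating mouse 3 (0.137).

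Differences below 0 were found for Slc12a2 (-3.52, adjusted p = 0.0318), Acot1 (-3.19, 0.0134), Krt5 (-3.10, 0.0318), Perp (-3.08, 0.0309) and Krt14 (-3.02, 0.0134). Krt14, a keratin of myoepithelial cells, was at 17.5, 41.7 and 17.1 non-milk CPM in C57 and at 3.00, 7.99 and 1.02 in NZB non-lactating glands, without overlap, and at 21.9, 24.3 and 29.7 and 28.9, 41.2 and 37.4 on day 14. Acot1, an acyl-CoA thioesterase, rose from 2.54, 4.60 and 0.409 to 19.0, 46.8 and 38.8 in NZB glands and overlapped in C57 glands. Krt14 had an adjusted p of 0.052 without C57 day 14 mouse 1, and so did Acot1. That of Krt5 was 0.0671, 0.0519 and 0.0746 without C57 day 14 mouse 1, 2 and 3. Without NZB non-lactating mouse 3 it was 0.0706 for Krt5 and 0.0727 for Perp. Perp also lost its call without C57 day 14 mouse 1 (0.0718) or 3 (0.0558). Krt5 and Krt14 belong to the myoepithelial list, whose median difference was -1.82, with 6 of 14 genes lower and 0 higher. The luminal secretory and hormone-sensing lists had medians of -2.53 and -2.03, and the B and T cell lists 2.44 and 2.66. Over all genes tested the median was 0.07, with 0.675% lower. These list values were not recomputed with a mouse left out, and their cause was not tested.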

How the results depend on the processing

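Median-centring gave 5700 higher and 2481 lower genes on day 14. Under the other alternatives of the non-milk scale, higher and lower counts stayed within 1.5 times 2237 and 4103, and leaving out 1 mouse gave 1801 to 2367 higher and 3399 to 3916 lower genes. On the deposited scale it gave 347 to 440 and 13220 to 13998. The difference in milk protein share ran from 67.27 to 73.25 percentage points. A fit of the 6 samples alone, without day 21, gave 2192 higher and 3950 lower genes. Of 47 lists, 19 had a median above 0, against 3 on the deposited scale and 33 after median-centring.

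Same-numbered day 14 and non-lactating mice deviated from their group means with correlations of 0.10, -0.05 and -0.12 across genes. Mice of unlike number gave -0.13 to 0.16. With 3 mice a group and genes that are not independent, these values cannot decide whether the numbers pair the samples. The replicate block gave 2010 and 3528 non-milk calls in the 2 directions, and 487 and 13931 with the deposited values. Against day 8 the block gave 437 higher and 206 lower genes, where 230 and 112 were called without it, and for the strain difference it gave 0 and 0. For the change in the numbers with the block the cause was not tested.

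With the deposited values the day 8 counts were 106 higher and 34 lower. Median-centring gave 127 higher, and leaving out 1 day 14 mouse gave 92 to 228 higher and 41 to 109 lower. Against day 21, 0 genes were called under each alternative run. The strain difference called 25 genes higher on the deposited scale, 28 higher and 253 lower after median-centring, 0 to 2 higher and 7 to 30 lower with 1 C57 day 14 mouse left out, and, in alternatives chosen after seeing the data, 16 and 303 without NZB non-lactating mouse 2, 0 and 24 without mouse 3 and 5 and 123 without both.

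Of 218 named genes, 29 that were called on at least 1 of the 2 scales changed sign on the deposited scale, which by construction lowers the log2 change of a well-counted gene by 1.78. Their deposited values were -1.59 for Cd36, -0.62 for Acaca, -0.32 for Scd2, -0.06 for Agpat1, -1.41 for Stat5a, -1.25 for Stat5b, -0.53 for Nfib, -1.61 for Esr1, -0.17 for Hspa5, -0.18 for Atf4 and -0.07 for Sec23b. They were -1.61 for Sod2, -0.12 for Pdhb, -0.53 for Mpc1, -0.59 for Mpc2, -0.08 for Pdk1, -0.37 for Ucp2, -0.42 for Ppard, -0.07 for Wipi1, -0.50 for Nbr1 and -0.76 for Stat3. The rest were -1.54 for Krt14, -1.32 for Acta2, -0.59 for Myh11, -1.67 for Per1, -1.60 for Clock, -0.68 for Igtp, -1.30 for Acot1 and -0.91 for Perp. Another 4 changed sign there without being called on either scale. Median-centring turned Slpi to 1.66, and in addition 4 genes that were called on neither scale changed sign, among them Spp1 (1.75) and Fasn (0.06). In voom 214 of the 218 genes stayed on the same side of the threshold and no gene called in either fit changed sign, while 7 uncalled genes did, among them Spp1 (1.90), Slpi (1.62), Fasn (0.20) and Sc5d (0.02). Non-lactating mouse 2, at 7031812 counts, was the shallowest gland, and genes near 1 CPM are the least precise.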
